A study of Mus musculus with 17 samples.

Results

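The genes described here are 9 that textbooks list among the products of activated lung fibroblasts and of myofibroblasts, and they were chosen by symbol, as the rows of the gene count table named Acta2, Tagln, Cthrc1, Postn, Fn1, Tnc, Fap, Thbs1 and Thbs2. All 9 were found among the 45777 genes of the table, and all 9 were among the 22052 genes with enough counts to be tested. The RNA came from lungs of wild-type male C57BL/6 mice, which arrived at 6 weeks of age and were given a week to settle in. Irradiated mice received 65 Gy or 75 Gy of X-rays in 1 fraction, aimed with image guidance at a small field of the left lung, and their RNA was taken from the lesion. Control mice were of the same strain, sex and age and were not irradiated. Which part of their lungs gave the RNA is not given in the sources used here. Lungs were collected after 2 weeks, which the study calls the inflammation stage, and after 6 weeks, which it calls the fibrosis stage. Each group had 3 libraries, except for 65 Gy at 6 weeks, for which 2 libraries were analysed. The study lists 3 replicates for that group, of which 2 are among the 17 libraries used here. Since the controls were kept for 2 or 6 weeks as well, each irradiated group was compared with the controls of its own time, and both doses of a time share these 3 controls.

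After an injury, resident fibroblasts of the lung can turn into cells that lay down matrix and pull on it. Such cells take up contractile proteins of smooth muscle, above all the actin encoded by Acta2 and its partner transgelin encoded by Tagln, and secrete glycoproteins that organise collagen and carry signals to neighbouring cells, among them fibronectin (Fn1), tenascin C (Tnc), periostin (Postn) and the thrombospondins (Thbs1 and Thbs2). Cthrc1 and Fap mark activated fibroblasts in fibrotic lung, whereas several of the other genes are also used by smooth muscle, macrophages, platelets or endothelium. In RNA of whole tissue, fewer cells of a type and less RNA per cell cannot be told apart.

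The libraries held between 46764569 and 66797879 counts on genes, so that even Fap, the member with the fewest counts, had between 63 and 133 of them per library. Markers of alveolar type 2 cells, such as surfactant protein C (Sftpc), and of alveolar type 1 cells, such as Ager, had counts in every library. A pair of libraries stood apart from their groups. Control library 3126 of 2 weeks had 1249 CPM of Thbs1 and a summed level of 67.1 CPM over 7 platelet markers, against 26.8 and 31.0 CPM in the other 2 controls of that time, while the controls of 6 weeks had 50.7 to 68.8 CPM. Library 3134 of 75 Gy at 2 weeks had a summed level of 2409 CPM over 10 monocyte and macrophage markers, against 1003 and 1222 CPM in the other 2 of its group, and the lowest level of 10 smooth muscle markers, at 406 CPM. Values without either library are given beside the results that it moved most. Levels are given as CPM, the counts of a gene relative to the library's total after scaling with TMM factors. Groups were compared with the quasi-likelihood test of edgeR and Benjamini-Hochberg adjustment over all genes tested, and calls needed both an adjusted p of 0.05 or less and a log2 fold change (log2FC) of 1 or more in size. The labels do not say which libraries came from separate animals, and p-values measure the spread between these libraries.

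Fn1 and Tnc, which encode fibronectin and tenascin C, rose at both doses and both times, and Thbs2 rose at 75 Gy at 6 weeks. The other 6 members, the contractile genes Acta2 and Tagln included, were not called in any comparison. At 2 weeks, 2 of the 9 members were called at 65 Gy, where 4.34% of all genes tested were called, and 2 of 9 at 75 Gy, where the share of all genes was 7.71%. At 6 weeks, 2 of 9 were called at 65 Gy against 5.25% of all genes, and 3 of 9 at 75 Gy against 10.4%. All of these calls were rises, and rises were called for 3.47%, 5.65%, 4.3% and 7.26% of all genes in these 4 comparisons. Every irradiated library was above every control for 3, 4, 3 and 3 members, as it was for 15.9%, 15.5%, 28.2% and 29.4% of all genes. The median log2FC of the 9 members was -0.11 and -0.16 at 65 and 75 Gy at 2 weeks and 0.02 and 0.39 at 6 weeks, beside medians between -0.01 and 0.04 over all genes tested.

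**Figure D1:**
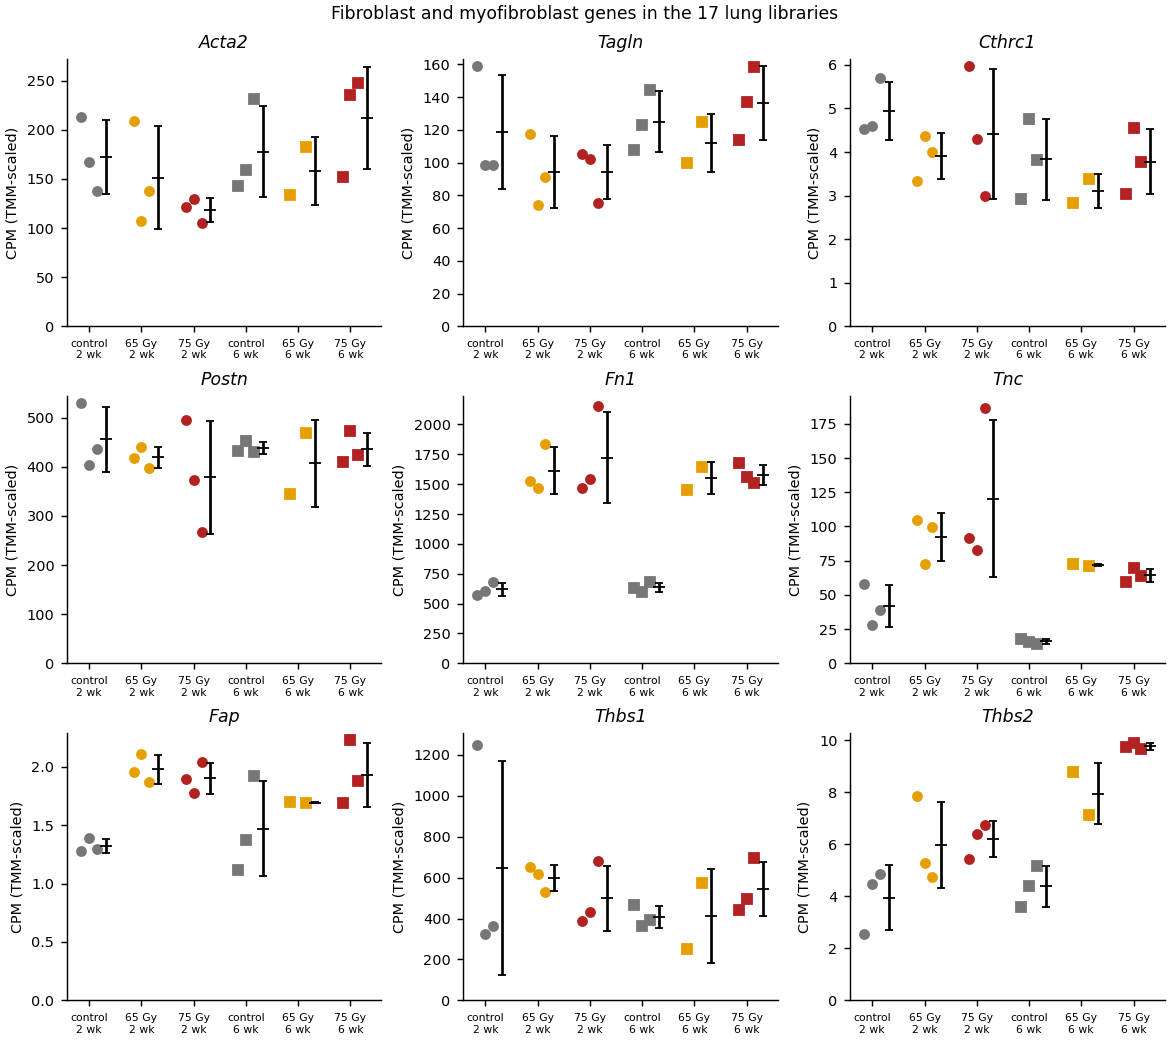
Level of each of the 9 genes in CPM (TMM-scaled, linear axes from 0) in the 17 libraries, grouped by dose and time; circles are libraries of 2 weeks, squares libraries of 6 weeks, and bars beside the points give the mean with 1 SD. Fn1 and Tnc lie above the controls of their time in every irradiated library, whereas Acta2, Tagln, Cthrc1 and Postn overlap with the controls at 6 weeks.

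The start sites of 3 members are shown because 2 of them, Tnc and Thbs2, rose and the third, Postn, did not. The sequences are RefSeq's, read from its promoter windows of GRCm38.p6, and 4 of the 9 members had such a window. Each run is the 250 bases before a start, 5′ to 3′ on the strand of the gene, and capitals mark the letters TATAAA or their reverse complement. The window of Tnc is chr4:64047016-64047265 on the minus strand, which lies before the outer of its 2 listed starts, that of Thbs2 is chr17:14694263-14694512 on the minus strand, and that of Postn is chr3:54360857-54361106 on the plus strand, before the second of its starts.
Tnc: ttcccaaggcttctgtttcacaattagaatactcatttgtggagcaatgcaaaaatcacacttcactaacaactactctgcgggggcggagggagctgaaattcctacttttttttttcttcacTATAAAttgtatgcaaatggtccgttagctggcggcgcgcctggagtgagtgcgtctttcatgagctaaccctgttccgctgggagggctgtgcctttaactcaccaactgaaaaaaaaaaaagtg
Thbs2: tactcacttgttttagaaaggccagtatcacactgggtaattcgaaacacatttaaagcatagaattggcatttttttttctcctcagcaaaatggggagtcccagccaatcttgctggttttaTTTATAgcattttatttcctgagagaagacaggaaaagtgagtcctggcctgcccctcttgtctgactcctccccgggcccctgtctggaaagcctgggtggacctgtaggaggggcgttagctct
Postn: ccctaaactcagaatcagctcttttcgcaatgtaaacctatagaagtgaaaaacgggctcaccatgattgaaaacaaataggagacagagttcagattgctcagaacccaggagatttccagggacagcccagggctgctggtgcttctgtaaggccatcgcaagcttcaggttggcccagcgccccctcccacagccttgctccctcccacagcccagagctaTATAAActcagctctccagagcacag
The windows were searched on both strands for TATAAA, for the CArG box of serum response factor, for CATTCC, the core read by TEAD factors, for TGANTCA of AP-1, for GGGCGG of Sp1 and for CAGACA of Smad proteins. TATAAA began 26 bases before the start of Postn and 126 bases before those of Tnc and Thbs2, in Thbs2 on the other strand, and it is held by 12.4% of the 32851 windows of all genes. GGGCGG was found in this window of Tnc and is held by 32.7% of all windows, and CAGACA was found 2 times in that of Thbs2 and is held by 17.1%. No letters of a CArG box (1.47% of all windows), of CATTCC (12.6%) or of TGANTCA (6.75%) were found in these 3 windows. The other listed start of Tnc has a window that overlaps this one and is not printed, and counted from that start TATAAA was found at position -205, GGGCGG at -246 and CAGACA, on the other strand, at -71. The other window of Postn, before its first start, is not printed and held none of these letters. That of Acta2, the fourth member with a window, is not printed either. It held CATTCC at -146 and CAGACA at -236, both on the other strand. Only these exact letters were searched. The unprinted window of Tnc also holds TATATAA shortly before its start, which this search did not count. Such matches describe letters, not binding.

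Fn1 (GeneID 14268, chr1:71585473-71653280, minus strand, GRCm38.p6) encodes fibronectin, a glycoprotein that assembles into fibrils which integrins hold and on which collagen is laid down. Its level in the controls of 2 weeks was 574, 603 and 682 CPM. After 65 Gy it was 1531, 1471 and 1835 CPM, and after 75 Gy 1464, 1542 and 2158 CPM. Every irradiated library of 2 weeks was thus above every control, and library 3134 was the highest. The log2FC was 1.38 ± 0.14 (SE) at 65 Gy, a 2.60-fold rise (adjusted p 3.87e-05, edgeR), and 1.47 ± 0.14 at 75 Gy, a 2.78-fold rise (adjusted p 1.06e-05, edgeR). Without library 3134 the value at 75 Gy was 1.28.

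In the fibrosis stage, at 6 weeks, the 3 controls had 635, 596 and 677 CPM of Fn1. The libraries of 65 Gy had 1455 and 1647 CPM and those of 75 Gy 1674, 1557 and 1509.9 CPM. The groups again did not overlap, and the lowest irradiated library, of 65 Gy, was just below the lowest of 2 weeks. Fn1 rose by 1.29 ± 0.16 on the log2 scale at 65 Gy (adjusted p 0.000113, edgeR) and by 1.31 ± 0.14 at 75 Gy (adjusted p 1.88e-05, edgeR). The difference between the effects of 6 and 2 weeks was not called at either dose. Fn1 had the smallest spread of the members, with a biological coefficient of variation of 0.126.

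The level of Fn1 was high where monocyte and macrophage markers were high. Their summed level over 10 genes was 456 to 567 CPM in the 6 controls and 1003 to 2409 CPM in the 11 irradiated libraries. Of the 10 markers, 5 rose at 65 Gy at 2 weeks and 7 in each of the other 3 comparisons with controls. Over all genes, rises were called for 3.47% and 5.65% at 65 and 75 Gy at 2 weeks and for 4.3% and 7.26% at 6 weeks. C1qa, the complement subunit that macrophages secrete, rose by 2.34 and 3.11 on the log2 scale at 65 and 75 Gy at 2 weeks and by 2.72 and 3.10 at 6 weeks. Its level spread from 159 to 463 CPM between the libraries of 75 Gy at 2 weeks. Csf1r, another abundant marker of the list, was not called, with log2FC values of 0.44 and 0.80 at 2 weeks and 0.32 and 0.48 at 6 weeks. The medians of 10 alveolar fibroblast markers were below 0 in the same comparisons. The summed level of 10 adventitial fibroblast markers overlapped between irradiated libraries and controls at 2 weeks. At 6 weeks this sum was 1021 to 1203 CPM in the controls, 1259 to 1262 CPM after 65 Gy and 1343 to 1492 CPM after 75 Gy. The part of macrophages or of fibroblasts in the level of Fn1 was not tested.

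**Figure D2:**
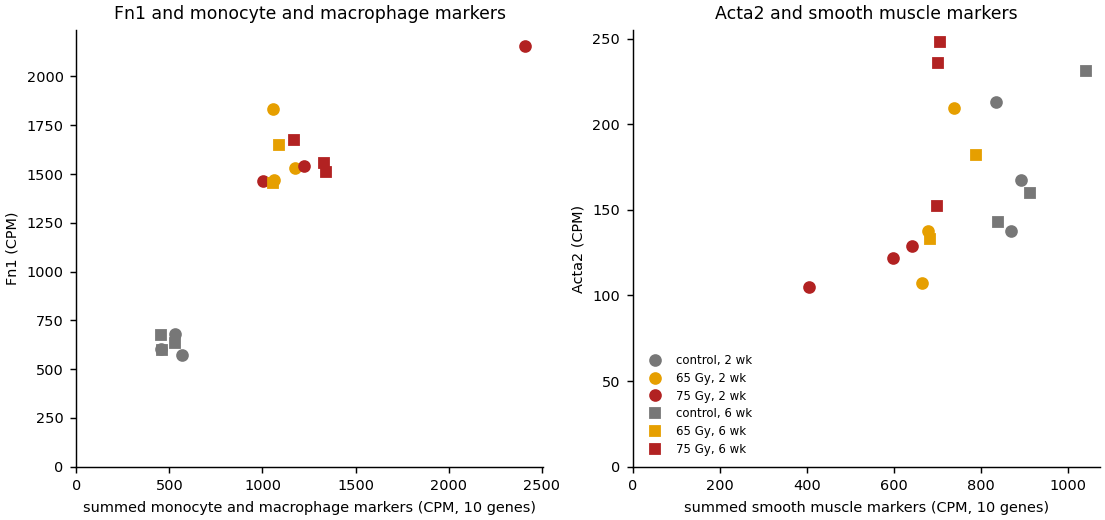
Left, level of Fn1 against the summed level of 10 monocyte and macrophage markers; right, level of Acta2 against the summed level of 10 smooth muscle markers; both axes in CPM from 0, 1 point per library, colours for dose and shapes for time. The 6 controls sit between 574 and 682 CPM of Fn1 and between 456 and 567 CPM of the macrophage markers, apart from all 11 irradiated libraries, while Acta2 shows no such gap.

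Tnc (GeneID 21923, chr4:63959785-64047015, minus strand) encodes tenascin C, a large glycoprotein of the matrix that is scarce in resting adult tissue and made at sites of injury. In the controls of 2 weeks its level was 58.2, 27.9 and 39.2 CPM, with library 3126 the highest. It was 105, 72.6 and 99.5 CPM after 65 Gy and 91.4, 83.1 and 187 CPM after 75 Gy, with library 3134 the highest of all 17. No irradiated library of 2 weeks overlapped with the controls. Tnc rose by 1.14 ± 0.28 (SE) on the log2 scale at 65 Gy (adjusted p 0.0167, edgeR) and by 1.53 ± 0.28 at 75 Gy (adjusted p 0.00151, edgeR). The call at 65 Gy was lost without library 3127, 3128, 3129 or 3131, with log2FC values from 0.92 to 1.46 when each library was left out in turn, and that at 75 Gy was lost when only the libraries of those 2 groups were fitted (adjusted p 0.0564, edgeR). At 75 Gy the value was 1.06 without library 3134 and 1.85 without library 3126.

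At 6 weeks the controls had 17.6, 15.9 and 14.5 CPM of Tnc, below all controls of 2 weeks. The libraries of 65 Gy had 72.3 and 71.3 CPM and those of 75 Gy 59.8, 69.3 and 64.0 CPM. These 5 libraries were close to each other and more than 3 times as high as any control of their time. The log2FC was 2.17 ± 0.31 at 65 Gy, a 4.49-fold rise (adjusted p 0.000433, edgeR), and 2.01 ± 0.29 at 75 Gy, a 4.03-fold rise (adjusted p 0.000145, edgeR), and these were the largest values of any member. The mean after irradiation was lower at 6 weeks than at 2 weeks, with 71.8 against 92.3 CPM at 65 Gy and 64.4 against 120 CPM at 75 Gy.

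Tnc was also the 1 member that differed between the controls of the 2 times. It was lower at 6 weeks by 1.39 ± 0.28 on the log2 scale (adjusted p 0.0259, edgeR), where 0.571% of all genes were called and 0.336% were called lower, and its groups did not overlap, as those of 11.2% of all genes did in this direction. This call was lost without library 3126, 3135, 3136 or 3137, and the value without library 3126 was -1.07. The effect of 65 Gy was larger at 6 than at 2 weeks by 1.02 on the log2 scale (95% confidence interval 0.14 to 1.90), with an unadjusted p of 0.0257 but an adjusted p of 0.54 (edgeR). At 75 Gy the effects differed by 0.48 (interval -0.35 to 1.32, adjusted p 0.555, edgeR), or by 0.17 without library 3126 and 0.95 without library 3134. Neither difference was called, and both hold the lower controls of 6 weeks.

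Thbs2 (GeneID 21826, chr17:14665500-14694262, minus strand) encodes thrombospondin 2, a secreted trimer that binds matrix proteases and restrains the growth of vessels. At 2 weeks it was at 2.54, 4.48 and 4.84 CPM in the controls, 7.86, 5.30 and 4.76 CPM after 65 Gy and 5.43, 6.41 and 6.75 CPM after 75 Gy. The groups overlapped at 65 Gy and not at 75 Gy, and neither was called, with a log2FC of 0.60 (interval 0.11 to 1.08, adjusted p 0.112, edgeR) and of 0.65 (interval 0.16 to 1.14, adjusted p 0.055, edgeR). Without library 3126, the lowest of these controls, the values were 0.36 and 0.42. At 6 weeks it was at 3.6, 4.40 and 5.17 CPM in the controls, 8.77 and 7.13 CPM after 65 Gy and 9.74, 9.91 and 9.66 CPM after 75 Gy. All 5 irradiated libraries were above all controls, and the 3 of 75 Gy lay close together above those of 65 Gy.

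Thbs2 rose at 75 Gy at 6 weeks by 1.15 ± 0.23 on the log2 scale, a 2.23-fold change (adjusted p 0.00141, edgeR), and this was called under every alternative and without any 1 library, with values from 1.03 to 1.29. At 65 Gy the log2FC was 0.86 ± 0.25 (adjusted p 0.0331, edgeR), which passed the limit on p, as 14.7% of all genes did, and not that on the fold.

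Thbs1 (GeneID 21825, chr2:118111876-118127133, plus strand) encodes thrombospondin 1, which is held in platelet granules, is made early after injury and can activate latent TGF-beta. Its level in the controls of 2 weeks was 1249, 323 and 363 CPM. It was 654, 616 and 528 CPM after 65 Gy and 386, 430.0 and 679 CPM after 75 Gy. The 2-week groups overlap because of library 3126, which was above every other library, while its 2 fellow controls were below every irradiated library of that time. The log2FC was -0.11 (interval -1.03 to 0.81) at 65 Gy and -0.37 (interval -1.29 to 0.55) at 75 Gy. Without library 3126 these became 0.81 and 0.55, also not called. Platelet markers moved with that library, as given above, and their part in the level of Thbs1 was not tested.

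At 6 weeks Thbs1 was at 467, 362 and 392 CPM in the controls, 249 and 575 CPM after 65 Gy and 439.9, 496 and 694 CPM after 75 Gy. All groups overlapped with the controls, with a log2FC of 0.02 at 65 Gy and 0.42 at 75 Gy (interval -0.50 to 1.34). Thbs1 had the widest spread of the members, with a biological coefficient of variation of 0.362, and at 65 Gy at 6 weeks a 2-fold change in either direction lay within its interval (-1.01 to 1.05).

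Postn (GeneID 50706, chr3:54359267-54391041, plus strand) encodes periostin, which links collagen, fibronectin and tenascin C and is a common marker of fibroblast activation. Its level at 2 weeks was 531, 403 and 436 CPM in the controls, 419, 441 and 399 CPM after 65 Gy and 496, 373 and 267 CPM after 75 Gy. At 6 weeks it was 432, 452 and 431 CPM in the controls, 345 and 469.8 CPM after 65 Gy and 410.0, 473 and 424 CPM after 75 Gy. The groups overlapped in all 4 comparisons, and the lowest value was that of library 3134. At 75 Gy at 2 weeks the log2FC was -0.27, and it was -0.07 without library 3134. At 6 weeks the log2FC was -0.11 (interval -0.53 to 0.32) at 65 Gy and -0.01 (interval -0.39 to 0.37) at 75 Gy. Upper-quartile factors turned the last value to 0.03. Both intervals end below the limit of 1, while the intervals of Tnc, its binding partner, at the same time begin above it.

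Cthrc1 (GeneID 68588, chr15:39076932-39087121, plus strand) encodes a secreted protein with a collagen triple helix repeat that marks the most matrix-rich fibroblasts of fibrotic lung. At 2 weeks it was at 4.53, 4.60 and 5.70 CPM in the controls, 3.33, 4.38 and 4.01 CPM after 65 Gy and 5.97, 4.30 and 2.99 CPM after 75 Gy. At 6 weeks the controls had 2.92, 4.76 and 3.81 CPM, the libraries of 65 Gy 2.84 and 3.38 CPM and those of 75 Gy 3.03, 4.55 and 3.76 CPM. The 3 libraries of 65 Gy at 2 weeks lay below their controls, as they did for 13.5% of all genes, the other groups overlapped with theirs, and no comparison was called. The log2FC at 75 Gy at 6 weeks was -0.02 (interval -0.53 to 0.50), and it was 0.02 with upper-quartile factors.

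Fap (GeneID 14089, chr2:62500936-62575509, minus strand) encodes fibroblast activation protein, a protease of the cell surface. It was the least abundant member, at 1.28, 1.39 and 1.30 CPM in the controls of 2 weeks, 1.95, 2.11 and 1.87 CPM after 65 Gy and 1.89, 1.77 and 2.04 CPM after 75 Gy. These 6 irradiated libraries were all above the 3 controls. The log2FC was 0.58 ± 0.20 at 65 Gy (adjusted p 0.0694, edgeR) and 0.52 ± 0.20 at 75 Gy (adjusted p 0.0672, edgeR), so that Fap was not called. At 6 weeks the controls spread to 1.12, 1.37 and 1.92 CPM and overlapped with both doses, at 1.70 and 1.69 CPM after 65 Gy and 1.69, 2.23 and 1.88 CPM after 75 Gy.

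Acta2 (GeneID 11475, chr19:34240336-34255585, minus strand) encodes alpha smooth muscle actin, the standard marker of myofibroblasts and a main protein of smooth muscle around airways and vessels. Its coding sequence is very close to those of other actins, and how reads shared with them were counted is not given in the sources used here. At 2 weeks it was at 213, 167 and 138 CPM in the controls, 209, 107 and 138 CPM after 65 Gy and 122, 129 and 105 CPM after 75 Gy. The libraries of 75 Gy were all below the controls, as they were for 14.8% of all genes, and the log2FC of -0.54 was not called (adjusted p 0.142, edgeR), although its interval of -1.08 to -0.0011 just leaves out 0. At 65 Gy the log2FC was -0.19 (interval -0.73 to 0.35). Without library 3126 the values were -0.35 at 75 Gy and -0.01 at 65 Gy.

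At 6 weeks Acta2 was at 143, 159.6 and 231 CPM in the controls, 133 and 182 CPM after 65 Gy and 152, 235 and 248 CPM after 75 Gy. The groups overlapped at both doses. The log2FC was -0.17 (interval -0.78 to 0.43) at 65 Gy and 0.25 (interval -0.29 to 0.79) at 75 Gy, and so all 4 intervals against controls left out a rise of 1 on the log2 scale. Between 2 and 6 weeks the effect of 75 Gy on Acta2 moved upwards by 0.79 (interval 0.03 to 1.56), with an unadjusted p of 0.0427 and an adjusted p of 0.296 (edgeR), where 0.245% of all genes were called. The difference between the 2 times was therefore not called.

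Tagln (GeneID 21345, chr9:45929628-45936058, minus strand) encodes transgelin, an actin-binding protein of smooth muscle and myofibroblasts. It was at 159, 98.8 and 98.6 CPM in the controls of 2 weeks, 117, 74.1 and 91.4 CPM after 65 Gy and 105, 102 and 75.4 CPM after 75 Gy. At 6 weeks the controls had 108, 123 and 145 CPM, the libraries of 65 Gy 99.5 and 125 CPM and those of 75 Gy 114, 137 and 158 CPM. All groups overlapped with their controls. The log2FC was -0.33 at both doses at 2 weeks, and -0.16 (interval -0.66 to 0.35) at 65 Gy and 0.13 (interval -0.32 to 0.57) at 75 Gy at 6 weeks, and none was called. Without library 3126 the 2-week values were -0.06 at both doses.

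**Figure D3:**
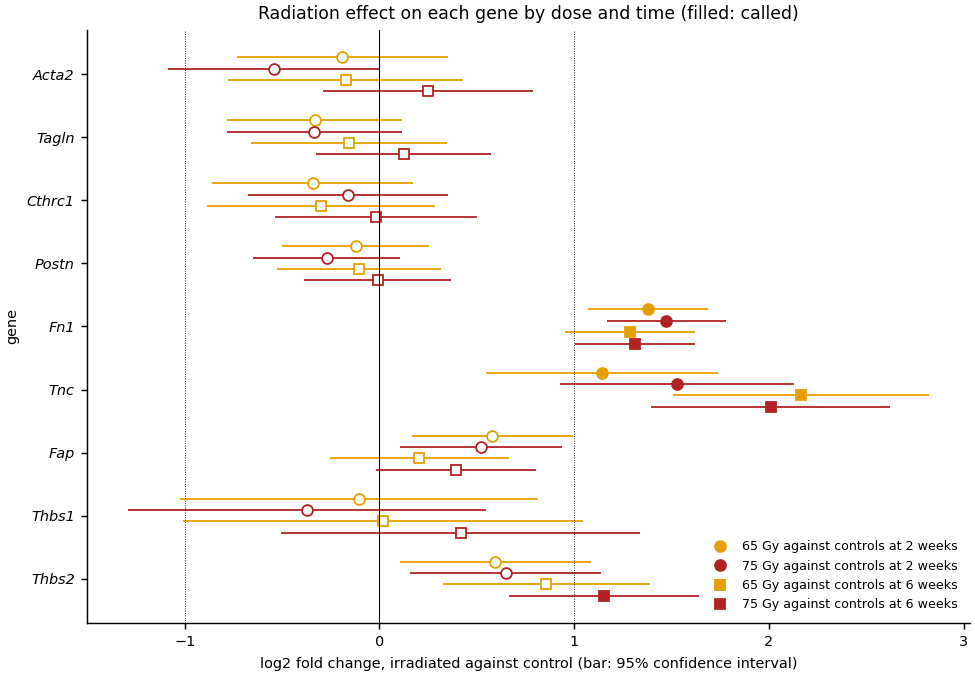
Log2 fold change of each gene against the non-irradiated controls of the same time, with its 95% confidence interval, from the edgeR quasi-likelihood fit; circles are 2 weeks, squares 6 weeks, colours the doses, filled symbols are called genes and dotted lines mark a log2 fold change of 1 in either direction. The filled symbols are the 4 of Fn1, the 4 of Tnc and that of Thbs2 at 75 Gy at 6 weeks.

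Since Acta2 and Tagln are also made by smooth muscle, their counts were set against those of Myh11, the smooth muscle myosin heavy chain, in the same library. Myh11 was at 153, 178 and 148 CPM in the controls of 2 weeks and at 76.7, 112 and 67.0 CPM after 75 Gy, a log2FC of -0.90 ± 0.19 (adjusted p 0.00369, edgeR) that did not reach the limit on the fold. At 6 weeks it was at 143, 161 and 226 CPM in the controls and at 121, 134 and 123 CPM after 75 Gy, and its log2FC was -0.49 ± 0.19 (adjusted p 0.0551, edgeR). The summed level of the 10 smooth muscle markers was 834 to 1041 CPM in the 6 controls and 406 to 788 CPM in the 11 irradiated libraries. A large part of this sum was Itga8, at 305 to 417 CPM in the controls and 120 to 274 CPM in the irradiated libraries. Without Itga8 the sums of some irradiated libraries and controls overlapped. Control library 3128 of 2 weeks had 869 CPM, of which 393 CPM were Itga8. Library 3129 of 65 Gy at that time had 738 CPM, of which 222 CPM were Itga8. Control library 3135 of 6 weeks had 839 CPM, with 381 CPM of Itga8, against 788 and 262 CPM in library 3140 of 65 Gy. The libraries of 75 Gy at 2 weeks stayed below their controls. No test was run on the sums without Itga8. Myh11 after 65 Gy at 6 weeks was at 149 and 167 CPM and overlapped with its controls. Cnn1 at 75 Gy at 2 weeks was the 1 marker of that list that was called.

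The log2 ratio of Acta2 to Myh11 was 0.00, -0.02 and 0.03 in the controls of 6 weeks. It was -0.17 and 0.12 after 65 Gy and 0.33, 0.82 and 1.02 after 75 Gy. The 3 libraries of 75 Gy lay above the controls, and those of 65 Gy lay on both sides of them. Over both doses the irradiated libraries were higher by 0.42 (n = 5 against 3), with an exact 2-sided permutation p of 0.25 and an adjusted p of 0.349 over the 4 ratios tested, where the smallest p that the 56 arrangements allow is 0.0357. At 2 weeks the difference was 0.24 (n = 6 against 3, exact permutation p 0.262, smallest possible 0.0238). For Tagln it was 0.30 at 2 weeks and 0.35 at 6 weeks (exact permutation p 0.357 and 0.214). When each library was left out in turn, the 2-week differences ranged from 0.14 without library 3128 to 0.43 without library 3126 for Acta2, and from 0.11 without library 3127 to 0.56 without library 3126 for Tagln. None of the 4 differences over both doses was larger than the SD of the irradiated libraries, which joins both doses. For Tagln at 6 weeks the 3 libraries of 75 Gy, at -0.09, 0.03 and 0.37, lay above the controls at -0.41, -0.40 and -0.65. Those of 65 Gy, at -0.59 and -0.42, lay among these controls. The differences depended on the reference. With Cnn1 in place of Myh11 the differences were 0.50 for Acta2 and 0.56 for Tagln at 2 weeks and -0.0022 and -0.0769 at 6 weeks. With the 75 Gy libraries alone against the controls they were 0.41 and 0.62 at 2 weeks and 0.72 and 0.59 at 6 weeks. The adjusted p of each of these 4 was 0.2 (exact permutation).

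**Figure D4:**
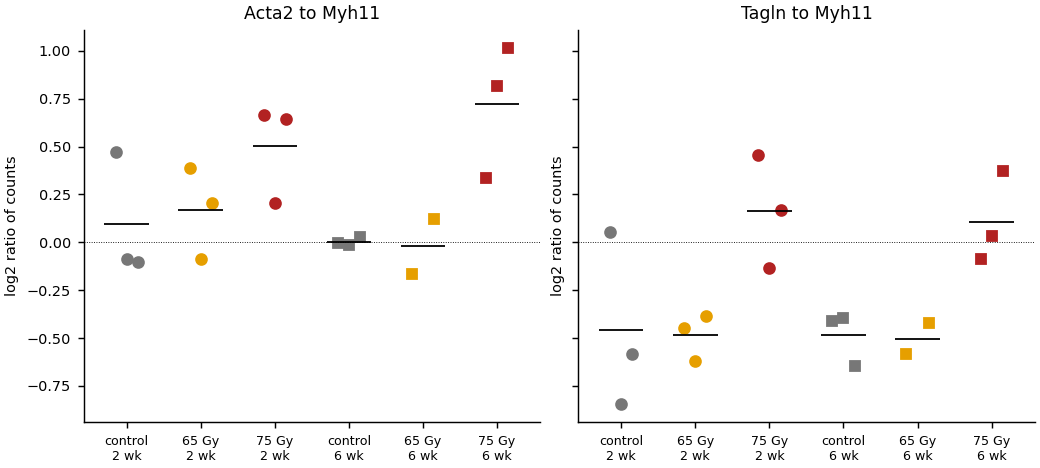
Log2 ratio of the counts of Acta2 (left) and Tagln (right) to those of Myh11 in each of the 17 libraries, by dose and time; short lines are group means and the dotted line marks equal counts. The 3 libraries of 75 Gy at 6 weeks lie at 0.33, 0.82 and 1.02 for Acta2, above the 3 controls near 0.

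Between the doses, no member was called at 2 weeks or at 6 weeks, and neither was any of the 22052 genes tested with the quasi-likelihood test of edgeR. None of the 9 members had an unadjusted p under 0.05 in either comparison, and DESeq2 and edgeR's exact test also called none of them. Over all genes DESeq2 called 7 at 2 weeks and 14 at 6 weeks, and the exact test 7 and 11. For Tnc at 2 weeks the log2FC of 75 against 65 Gy was 0.38 (interval -0.20 to 0.97), and it was -0.08 without library 3134. For Acta2 it was -0.35 (interval -0.89 to 0.19) at 2 weeks and 0.42 (interval -0.18 to 1.03) at 6 weeks. The value at 2 weeks was -0.0470 without library 3129, and that at 6 weeks ranged from 0.20 without library 3138 to 0.65 without library 3140. The interval at 6 weeks holds a difference of 1 on the log2 scale. In the fibrosis stage all libraries of 75 Gy were above those of 65 Gy for Thbs2 and below them for Tnc, as they were for 15.6% and 15.3% of all genes.

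Between the times, no member was called for either dose when the effects of irradiation at 6 and 2 weeks were compared. At each dose 1 of the 9 members had an unadjusted p under 0.05, Tnc at 65 Gy and Acta2 at 75 Gy, DESeq2 called none of the 9, and 0.0136% of all genes were called at 65 Gy. In the controls, the log2FC between the times lay between -0.06 and 0.07 for Fn1, Acta2, Tagln and Postn. Thbs1 had a log2FC of -0.66 there, which became 0.25 without library 3126.

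Levels of different genes were compared as CPM per kilobase of exon, with exon lengths from GENCODE M21. In the controls of 2 weeks the mean was 139 ± 20.2 (SD, n = 3) for Postn, 110 ± 89.5 for Thbs1, 84.8 ± 18.6 for Acta2, 74.5 ± 21.8 for Tagln and 73.0 ± 6.59 for Fn1. Neighbours in this order did not differ beyond their SDs. Tnc at 5.37 ± 1.97, Cthrc1 at 4.24 ± 0.56, Thbs2 at 0.67 ± 0.21 and Fap at 0.48 ± 0.02 were far lower. After 75 Gy at 6 weeks Fn1, at 186 ± 9.93, had the highest mean, above Postn at 132 ± 9.97 and Acta2 at 104 ± 25.6, while Tnc at 8.28 ± 0.62 remained among the low members. Control lung tissue thus already held much RNA of Postn, Acta2 and Tagln without irradiation.

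Of 20 other genes that activated fibroblasts are known to use, 4 rose at 65 Gy at 2 weeks and 5 in each of the other 3 comparisons with controls, and none fell. The 5 were Spp1, Sfrp1, Grem1, Inhba and Timp1. Spp1, which encodes osteopontin and is also a product of macrophages, rose most, by 3.28 ± 0.30 on the log2 scale at 75 Gy at 2 weeks and by 4.56 ± 0.31 at 6 weeks. Sfrp1, a secreted modulator of Wnt signals, rose by 1.62 ± 0.21 and by 2.84 ± 0.22. The median log2FC of the list lay between 0.28 and 0.50 in the 4 comparisons. Rises were called for 3.47% and 5.65% of all genes at 65 and 75 Gy at 2 weeks and for 4.3% and 7.26% at 6 weeks. These shares stand beside the lists below as well. The other 15 genes, among them Lrrc15, Nox4, Il11 and Adam12, were not called in these comparisons.

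Among 16 other matricellular proteins, Tgfbi rose at both doses at 2 weeks, Thbs4 rose at both doses at 6 weeks, and Comp and Ccn4 rose at 75 Gy at 6 weeks. Thbs4, the nearest relative of Comp among the thrombospondins, rose by 2.98 ± 0.41 on the log2 scale at 75 Gy at 6 weeks. Its level was low, at 0.15 to 0.38 CPM in the controls of 6 weeks and 1.83 to 2.25 CPM after 75 Gy. Tnxb, a relative of Tnc, fell at 75 Gy at both times, by 1.36 at 6 weeks, and Thbs3 had a log2FC of -0.84 at 75 Gy at 2 weeks. Smoc2 fell at 75 Gy at 2 weeks and Tnr at 75 Gy at 6 weeks. The median of this list lay between -0.14 and 0.17.

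Of 16 enzymes and partners of the members, 2 and 3 rose at 65 and 75 Gy at 2 weeks and 4 at 65 Gy at 6 weeks, and none fell in any of the 4 comparisons. P4ha3, a prolyl hydroxylase of collagen, and Plau, the urokinase that activates plasminogen, rose in all 4 comparisons, and at 75 Gy at 6 weeks by 1.97 ± 0.21 and 1.41 ± 0.19 on the log2 scale. Mmp14 joined them in 3 comparisons and Mmp2 at both doses at 6 weeks. The collagen genes Col1a1, Col1a2, Col3a1 and Col5a1 were not called in these 4 comparisons. Dpp4, the closest relative of Fap, had a log2FC of -0.80 ± 0.12 at 75 Gy at 2 weeks (adjusted p 0.000298, edgeR), within the fold limit.

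Receptors that bind these matrix proteins were called in 1 case of 17, Cd36, which fell at 65 Gy at 2 weeks. The edgeR test, DESeq2 and edgeR's exact test called none of the 17 in the other 3 comparisons, where between 7 and 11 had an unadjusted p under 0.05. The share of all genes under that unadjusted limit is not given here. At 65 Gy at 6 weeks 14.7% of all genes passed even the adjusted limit. Such counts, here and for the other lists, are therefore not read as particular to a list. Itgav, the alpha subunit of the receptors of fibronectin and vitronectin, had a log2FC of 0.42 ± 0.07 at 75 Gy at 2 weeks, and Itga8 one of -0.80. Itgb3 and Cd47 had log2FC values of -0.62 ± 0.10 and -0.52 ± 0.09 at 75 Gy at 6 weeks.

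Of 23 regulators of contractile and fibroblast genes, none rose. Klf4, a factor that restrains the contractile program, fell at 75 Gy at 2 weeks and at both doses at 6 weeks, with a log2FC of -1.48 ± 0.125 and -1.14 ± 0.124 at 75 Gy. Tead1, by 1.21 ± 0.15, and Tead4 fell at 75 Gy at 6 weeks. Snai2 had a log2FC of -0.87 at 75 Gy at 2 weeks. Srf, Myocd, Mrtfa and Mrtfb, which drive Acta2 and Tagln, were not called in any comparison with controls. At 65 Gy at 2 weeks edgeR's quasi-likelihood and exact tests and DESeq2 called none of the 23, of which 9 had an unadjusted p under 0.05. Of 20 genes of the actin cytoskeleton, Acta1 rose and Actc1 fell at 75 Gy at 2 weeks, and none of the 3 tests called any of the 20 in the other 3 comparisons, where 4 to 9 had an unadjusted p under 0.05. Vcl, which encodes vinculin, had a log2FC of -0.93 ± 0.11 at 75 Gy at 6 weeks, Tln1 of -0.69, and Actb of 0.45 ± 0.11 at 75 Gy at 2 weeks.

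Markers of fibroblasts and of other cells were counted in the same 4 comparisons. Over all 22052 genes tested, 956 and 1700 were called at 65 and 75 Gy at 2 weeks, of which 766 and 1245 were rises. At 6 weeks 1157 and 2292 were called, of which 949 and 1601 were rises, and the rest were falls. The medians of 10 alveolar fibroblast markers lay between -0.73 and -0.51 on the log2 scale, with Slc7a10 called lower in 3 comparisons and Scube2 at 75 Gy at 6 weeks. At 65 Gy at 2 weeks none of the 10 was called by edgeR's quasi-likelihood test, with 6 at an unadjusted p under 0.05, while DESeq2 and the exact test called Inmt. Of 10 adventitial fibroblast markers, Pi16 fell at both doses at 2 weeks and Ccl11 rose at both doses at 6 weeks, and the effect of 75 Gy on Dcn was higher at 6 than at 2 weeks. Of 8 pericyte markers none was called by edgeR, with 3 to 5 at an unadjusted p under 0.05, and DESeq2 called 1 at 75 Gy at 6 weeks. Of 7 mesothelial markers, 4 fell at 65 Gy at 6 weeks and none was called by edgeR's quasi-likelihood test in the other 3 comparisons, with 2 or 3 at an unadjusted p under 0.05, while DESeq2 and the exact test called Muc16 at 75 Gy at 2 weeks. Of 7 platelet markers, none was called by the 3 tests at 2 weeks, with 1 and 3 at an unadjusted p under 0.05, and 3 fell at 65 Gy and 5 at 75 Gy at 6 weeks. Of 6 endothelial markers, Tek fell in all 4 comparisons and 5 fell at 75 Gy at 6 weeks. Of 6 alveolar type 2 markers none was called by any of the 3 tools, with 0 to 4 at an unadjusted p under 0.05, and of 6 alveolar type 1 markers Rtkn2 fell at 75 Gy at 6 weeks. Actc1 was the 1 of 6 markers of pulmonary vein muscle that fell at 75 Gy at 2 weeks and Sln the 1 that rose at 75 Gy at 6 weeks, and of 5 markers of skeletal muscle that were tested Acta1 rose and Ckm fell at 75 Gy at 2 weeks. The skeletal muscle marker Myh4 was at 0 in 15 libraries, and Acta1 did not exceed 66 counts in any. Acta1, Actc1, Itga8, Pdpn and Tcf21 each stand in more than 1 of the gene and marker lists. Which of these cells add to the level of each member was not tested.

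Genes whose level was most like that of each member over the 17 libraries were found by Pearson's r of log2 CPM, as a description of likeness that irradiation, shared depth and cell makeup all enter. Acta2 was most like Cnn1, Myl9 and Actg2, with r of 0.95, 0.93 and 0.93, and Tagln was most like Acta2, at 0.91, Cnn1 and Tnnt3. Fn1 was most like Pld3, Cd68 and Stra6l, with r of 0.99 for each, and Tnc was most like Adamts4, Gch1 and Timp1, with r of 0.99, 0.97 and 0.97. For Thbs2 the nearest were Vwa1, Pianp and Fndc7, for Thbs1 Arid5a, Hbegf and Ltv1, for Postn Apmap, Maoa and Cfl2, for Cthrc1 Cdh11, LOC115489488 and Dpt, and for Fap Ckmt1, Lyplal1 and Ddit4l. When the group means were taken out, Cnn1 was still the nearest to Acta2, at 0.96. The nearest to Fn1 was then Rtn4, at 0.90, and Cd68 was not among the 3 nearest. For Tnc, Thbs2, Postn, Cthrc1 and Fap none of the genes named above remained among the 3 nearest. Hbegf remained for Thbs1 and Acta2 for Tagln.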

How the data were processed

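RNA of mouse lung was sequenced by the authors as stranded, poly(A)-selected paired-end libraries. The authors trimmed the reads (Trimmomatic), used HISAT2 for alignment to GRCm38.p6 and StringTie for assembly. How read counts were then made is not given in the sources used here. The values deposited are raw counts per gene, as whole numbers, not normalized, for 45777 genes in 17 libraries. Here, edgeR 4.0.16 in R 4.3.3 fitted all libraries with 1 coefficient per group after filterByExpr (minimum count 10, minimum total 15) and TMM scaling. The quasi-likelihood F test with robust estimation was used for the 9 comparisons, with Benjamini-Hochberg adjustment over the 22052 genes tested. The log2 ratios (1 added to each count) were compared by exact permutation, and likeness used a prior count of 2 and genes whose mean log2 CPM was 1 or more. The members, gene lists and tests were chosen with earlier results of these data known. The alternatives were RLE and upper-quartile factors, other filters, DESeq2 1.42.0, edgeR's exact test, fewer libraries, no fold limit, another smooth muscle gene and each library left out; a fit without robust estimation was added after seeing the data. Beside the members, the rule for genes named took from each list the 2 with the smallest p at 75 Gy at each time, from each marker list the 2 most abundant, Myh11, and the 3 genes most like each member; other list genes were named after their values were seen. The result of 1 listed gene is not reported here. The scripts were tested on simulated data.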

Additional observations from a re-analysis of the deposited data

How the results depend on the processing

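The lowest count of any member in a library was 63, for Fap, so that counting error adds to the spread of that gene, and how much of each member's spread it makes up was not tested. No paired analysis was possible because the labels number all 17 libraries differently, so that groups share no number. Of the 81 fold changes of the 9 members in the 9 comparisons, 10 were called, and none of these 10 changed sign under any alternative or without any 1 library. The number of members called at 75 Gy at 2 weeks was 1 when only the libraries compared were fitted. Tnc, the 1 member called between the controls of both times, was lost when every gene with at least 1 count was tested and when only those 6 libraries were fitted, which left 0. Leaving out each library in turn gave 1 to 2 members called for 65 Gy at 2 weeks and 0 to 1 for the controls. The differences at 6 weeks in the log2 ratios with Cnn1 as the reference were -0.0022 for Acta2 and -0.0769 for Tagln. Values near 0 changed sign with upper-quartile factors (Cthrc1 at 0.0235 and Postn at 0.0321 at 75 Gy at 6 weeks) and, for Postn, with at least 10 counts in every library (0.00461). Without 1 library, other uncalled log2FC values crossed 0. At 65 Gy at 2 weeks they were -0.50 to 0.0064 for Acta2, -0.20 to 0.0040 for Postn and -0.43 to 0.81 for Thbs1. At 75 Gy at 2 weeks they were -0.44 to 0.0532 for Cthrc1 and -0.69 to 0.55 for Thbs1. At 65 Gy at 6 weeks they were -0.41 to 0.0595 for Acta2, -0.32 to 0.0074 for Tagln, -0.33 to 0.11 for Postn and -0.70 to 0.51 for Thbs1. At 75 Gy at 6 weeks they were -0.18 to 0.17 for Cthrc1 and -0.0626 to 0.0277 for Postn. For 75 against 65 Gy at 2 weeks they were -0.0810 to 0.59 for Tnc, and for the controls -0.99 to 0.25 for Thbs1. Beyond the construction of these fits, the cause was not tested. A library left out of the 2 of 65 Gy at 6 weeks leaves 1, which is assumed to vary like the other groups.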
